A study of Mus musculus with 10 samples.

Results

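Fatty acid desaturases and elongases decide how many unsaturated bonds the acyl chains of liver lipids carry and how long those chains are. Their transcripts were followed in livers of mice that ate chow with or without TM5614, an orally active small molecule that inhibits plasminogen activator inhibitor 1 (PAI-1). The 10 genes, chosen by symbol, were the stearoyl-CoA desaturases Scd1 and Scd2, the polyunsaturated fatty acid desaturases Fads1 and Fads2 with their relative Fads3, and the elongases Elovl1, Elovl2, Elovl3, Elovl5 and Elovl6. They were 10 of the 24421 genes listed, and all 10 were kept by the filter on low counts, which left 11092 genes for the test.

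Polyadenylated RNA was sequenced from whole livers of 10 wild type male C57BL/6 mice, 21 weeks old, that fed ad libitum. Each mouse gave 1 library. The Chow group (n = 5) ate standard chow, and the TM5614 group (n = 5) ate the same kind of chow with TM5614 mixed in at 20 mg/kg/day for 10 days. The question was how the hepatic transcripts of lipid metabolism differ under the inhibitor. The total count per library ranged from 6398335 to 10874955. The labels speak of neither a batch nor the hour at which livers were taken.

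In fatty acid desaturation, an iron enzyme of the endoplasmic reticulum removes hydrogen from an acyl-CoA with electrons that arrive from NADH through cytochrome b5 reductase and cytochrome b5. In elongation, an ELOVL enzyme condenses malonyl-CoA with the acyl-CoA, and a reductase, a dehydratase and a further reductase complete the cycle. The liver uses SCD1 and ELOVL6 to turn newly made palmitate into oleate, and it uses FADS2, ELOVL5, FADS1 and ELOVL2 in turn to build arachidonic and docosahexaenoic acid from the essential fatty acids of the diet.

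The summed level of 8 hepatocyte markers, in CPM (counts scaled by library size and by TMM, the scaling factors of edgeR), was 108900 to 128700 in Chow and 104000 to 119500 in TM5614, and all 8 had enough counts for the test. Of the libraries, 2 stood apart from their group. Chow replicate 2 had a mean correlation of 0.927 with the other Chow libraries, against 0.965 to 0.970 for the rest, and a trend with GC content and gene length accounted for 46.0% of the variance of its deviations, against at most 11.5% in any other library. TM5614 replicate 2 had a mean correlation of 0.971 with its group, against 0.982 for each of the rest, and held 4146 CPM over 12 skeletal muscle markers, which summed to 0.728 to 1.45 CPM in Chow and to 68.0 CPM in TM5614 replicate 3. The 12 muscle markers did not pass the filter on low counts and were not tested. None of the 37 markers of the other 6 cell types that were tested passed by edgeR, with 3 at an unadjusted p under 0.05, 1 by DESeq2 (the hepatocyte marker Ttr, lower) and 2 by limma-voom (Ttr, lower, and the stellate cell marker Dcn, higher). The 10 Kupffer cell markers all had estimates below 0 (median log2 fold change -0.43, summed level 83.4 to 264 CPM in Chow and 83.2 to 178 CPM in TM5614), and the 6 stellate cell markers all had estimates above 0 (median 0.21). The summed levels were 159 to 278 CPM in Chow and 254 to 339 CPM in TM5614 for stellate cells, 95.1 to 164 and 99.3 to 164 CPM for endothelium, and 33.3 to 50.4 and 27.5 to 74.1 CPM for bile duct cells. Their part in the results was not tested, and in bulk liver fewer cells of a type and less RNA per cell cannot be told apart.

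Of the 10 genes, 4 passed the test between the groups (edgeR's quasi-likelihood test, Benjamini-Hochberg adjusted p under 0.05 over all genes tested). Scd1 and Fads1 fell, Elovl2 and Elovl5 rose, and in each of these 4 the CPM ranges of the groups were apart. Over all genes tested, 4.5% passed, 1.73% as higher and 2.77% as lower in TM5614, and 8.93% had ranges that were apart. With DESeq2, 5 of the 10 passed, Elovl1 being the fifth, against 8.16% of all genes that it tested. The median log2 fold change of the 10 genes was -0.13, beside 0.01 over all genes, of which the middle part from the 5th to the 95th percentile ran from -0.64 to 0.56. The count of 4 was 5 without Chow replicate 2, 4 without TM5614 replicate 2, 6 without both and 1 without TM5614 replicate 3, where Elovl5 alone passed.

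**Figure D1:**
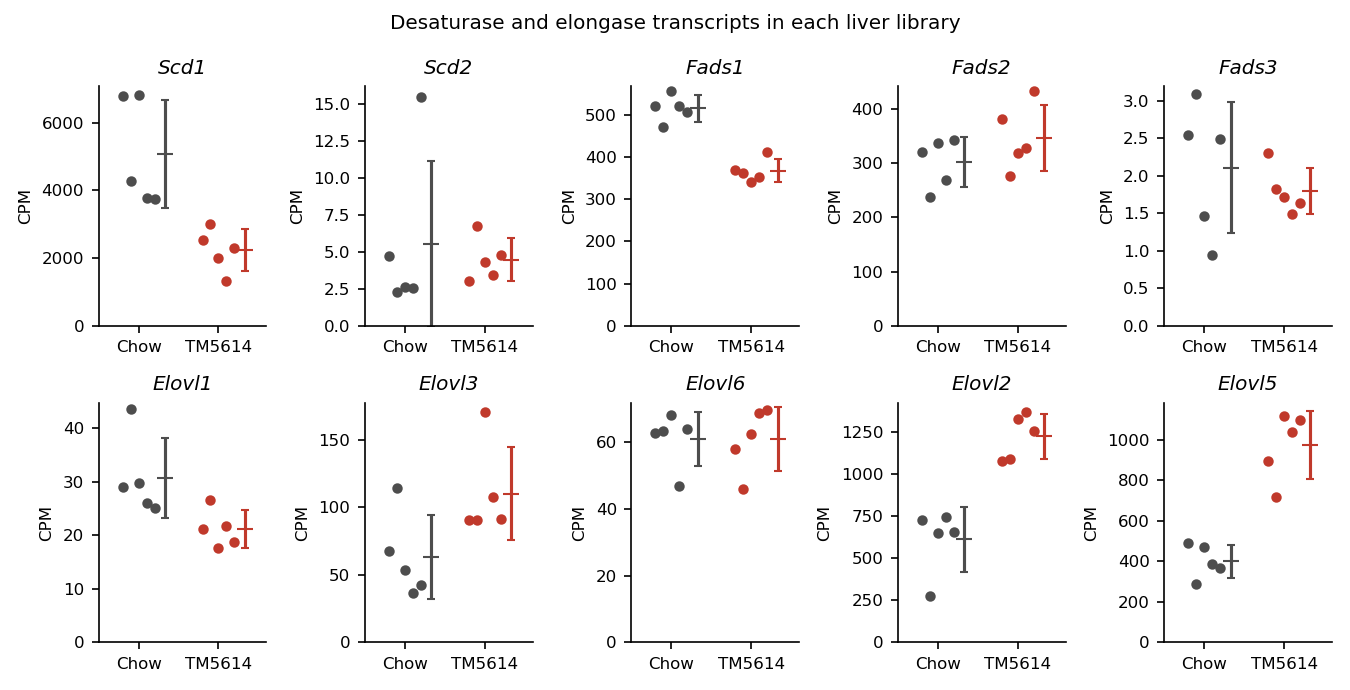
Level of each desaturase and elongase transcript in CPM (vertical axes from 0, one scale per gene) in the 5 Chow (grey) and 5 TM5614 (red) libraries, in replicate order from left to right, with the group mean and SD at the right of each group. Scd1 and Fads1 lie lower and Elovl2 and Elovl5 higher in every TM5614 library than in any Chow library, while the groups of the other 6 genes overlap.

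**Figure D2:**
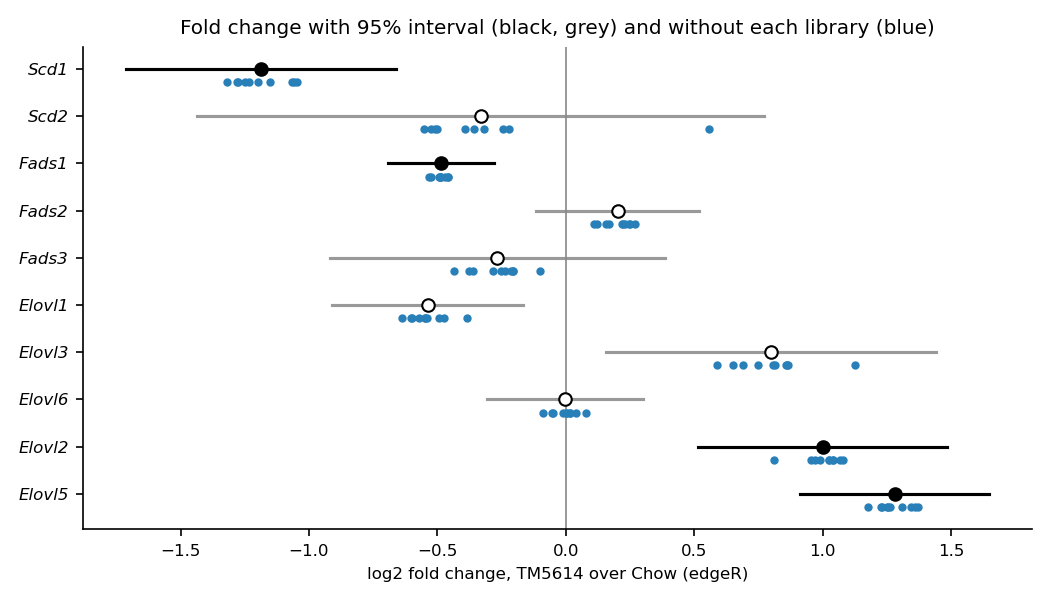
Log2 fold change of TM5614 over Chow for each gene by edgeR (large points) with its 95% interval (bars), and the same value without each library in turn (blue). Filled points passed the adjusted threshold; the intervals of Scd2, Fads2, Fads3 and Elovl6 hold 0, and 1 blue point of Scd2, without Chow replicate 5, lies on the other side of 0.

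Scd1 was by far the most abundant of the 10 transcripts per length in Chow, and it had the largest fall. SCD1 is the stearoyl-CoA desaturase of hepatocytes, which puts the unsaturated bond into stearate and palmitate to give oleate and palmitoleate. It stood at 6778, 4275, 6806, 3766 and 3748 CPM in Chow replicates 1 to 5. In TM5614 replicates 1 to 5 it stood at 2524, 3001, 2011, 1320 and 2299 CPM. The Chow libraries lay in a high pair, replicates 1 and 3, and a lower set of 3, yet the lowest of them was above the highest TM5614 library. Mean levels were 5075 ± 1582 CPM in Chow and 2231 ± 625 CPM in TM5614 (SD, n = 5 each), so that Scd1 fell by 56.0%. The log2 fold change was -1.19 (SE 0.24, 95% interval -1.71 to -0.66, edgeR adjusted p = 0.0162), and the exact two-sided permutation test of mean log2 CPM gave p = 0.00794, the smallest that 252 splits allow. Without TM5614 replicate 3 the adjusted p was 0.0561, at a log2 fold change of -1.15, although that library had neither the lowest nor the highest level of its group. The gene lies on chromosome 19 of GRCm38 (chr19:44394455-44407879, minus strand).

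Scd2, whose enzyme carries out the same reaction and is known mainly from brain and adipose tissue, lies 87.6 kb from Scd1 (chr19:44293674-44306864, plus strand) and was scarce, at 16 to 168 counts per library. It stood at 4.73, 2.31, 2.61, 2.54 and 15.5 CPM in Chow and at 3.02, 6.75, 4.36, 3.43 and 4.82 CPM in TM5614. Chow replicate 5 was well above every other Chow library, and the rest of the Chow libraries lay within or below the TM5614 range. The log2 fold change was -0.33 (95% interval -1.43 to 0.77, edgeR adjusted p = 0.732), and without Chow replicate 5 it was 0.56 (adjusted p = 0.284), so no direction could be given. The summed level of 8 adipocyte markers in Chow replicate 5 was 29.3 CPM, the highest of the Chow libraries, of which the lowest had 7.52 CPM. TM5614 replicate 2, which had the highest Scd2 level of its group, had 87.1 CPM over the same markers. Adipoq, the adiponectin gene of adipocytes, had 28 counts in Chow replicate 5 and 57 in TM5614 replicate 2, and 0 to 11 counts in the rest. Plin1, Fabp4, Cfd, Retn and Lep were likewise highest in these libraries of their groups, and Fabp4 gave 62.9 of the 87.1 CPM. Adrb3 went the other way, lowest of the Chow libraries in replicate 5 (3.04 CPM). Cidea was lower in TM5614 replicate 2 (0.649 CPM) than in TM5614 replicate 5 (2.46 CPM). Scd2 was higher in Chow replicate 5 than in TM5614 replicate 2, the reverse of the marker sums. The part of these markers in the Scd2 values was not tested.

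Fads1 encodes the desaturase that makes arachidonic and eicosapentaenoic acid. It stood at 521, 471, 557, 521 and 505 CPM in Chow. In TM5614 it stood at 370, 363, 340, 352 and 413 CPM. The spread within each group was small and the lowest Chow library was above the highest TM5614 library. Fads1 fell by 28.7% between means of 515 ± 31.2 and 367 ± 27.7 CPM (SD, n = 5 each). Its log2 fold change was -0.49 (SE 0.10, 95% interval -0.69 to -0.28, edgeR adjusted p = 0.0124). The exact permutation p was 0.00794. Without TM5614 replicate 3 the adjusted p was 0.0505, at a log2 fold change of -0.46.

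Fads2, the neighbour of Fads1 in the genome, encodes the desaturase that acts first on linoleic and alpha-linolenic acid, and it did not pass the test. It stood at 321, 238, 337, 268 and 343 CPM in Chow and at 380, 276, 318, 327 and 432 CPM in TM5614. The groups overlapped over much of their range. The log2 fold change was 0.20 (95% interval -0.12 to 0.52, edgeR adjusted p = 0.45), an interval that leaves out a fall of the size of that in Fads1. Fads3, a relative of less settled function, had 6 to 32 counts per library and means of 2.11 ± 0.873 and 1.79 ± 0.307 CPM (SD, n = 5 each). Its log2 fold change was -0.27 with a wide interval of -0.92 to 0.39 (edgeR adjusted p = 0.634), so a difference of moderate size was not detectable at this depth. The 3 genes form 1 cluster on chromosome 19, with Fads3 (chr19:10041569-10060110, plus strand) 2.7 kb from Fads2 (chr19:10062765-10101746, minus strand) and Fads2 81.1 kb from Fads1 (chr19:10182888-10196877, plus strand).

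Among the elongases, Elovl5 and Elovl2 of polyunsaturated chains rose, and Elovl1, Elovl3 and Elovl6 of other chains did not pass by edgeR. The difference between these kinds of elongase was not tested. Without Chow replicate 2 Elovl3 passed as well, at a log2 fold change of 1.12, beside 0.81 for Elovl2 and 1.18 for Elovl5. Elovl5 had the largest change of the 10 genes relative to its error. ELOVL5 lengthens the products of FADS2 and other polyunsaturated chains of intermediate length. Elovl5 stood at 491, 288, 470, 388 and 366 CPM in Chow. In TM5614 it stood at 895, 716, 1116, 1039 and 1100 CPM. The lowest TM5614 library, replicate 2, was well above the highest Chow library, replicate 1. The mean rose 2.43-fold, from 401 ± 82.4 to 973 ± 168 CPM (SD, n = 5 each), with a log2 fold change of 1.28 (SE 0.17, 95% interval 0.91 to 1.65, edgeR adjusted p = 0.00149, exact permutation p = 0.00794). Elovl5 passed under all 11 alternative settings and with any 1 of the 10 libraries left out, where its log2 fold change ran from 1.18 to 1.37 and its adjusted p from 0.000432 to 0.00665. The gene lies on the plus strand of chromosome 9 (chr9:77917364-77984519).

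Elovl2 encodes the elongase that lengthens the longer polyunsaturated chains on the way to docosahexaenoic acid. It stood at 729, 279, 652, 748 and 655 CPM in Chow. In TM5614 it stood at 1079, 1090, 1328, 1371 and 1257 CPM. Chow replicate 2 was far below the other Chow libraries, and those 4 were still below each TM5614 library. The means were 613 ± 192 and 1225 ± 135 CPM (SD, n = 5 each), the log2 fold change was 1.00 (SE 0.22, 95% interval 0.52 to 1.48) and the edgeR adjusted p was 0.0254, with an exact permutation p of 0.00794. Without Chow replicate 2 the log2 fold change was 0.81 and the adjusted p 0.000424. Elovl2 did not pass without Chow replicate 3 (adjusted p = 0.0578) or TM5614 replicate 3 (0.0737), 4 (0.0717) or 5 (0.0579). The log2 fold changes of these fits were 0.96 to 1.02. The gene lies on the minus strand of chromosome 13 (chr13:41182381-41220405).

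Promoters are shown for the genes past the threshold for which a promoter sequence was found, Elovl5 and Elovl2, both of which rose. The sequences are the 250 bases before the transcription start in RefSeq (GRCm38.p6), 5′ to 3′ on the strand of the gene, at chr9:77917115-77917364 (plus strand) for Elovl5 and chr13:41220404-41220653 (minus strand) for Elovl2. Capitals mark matches to the motifs searched.
Elovl5 promoter: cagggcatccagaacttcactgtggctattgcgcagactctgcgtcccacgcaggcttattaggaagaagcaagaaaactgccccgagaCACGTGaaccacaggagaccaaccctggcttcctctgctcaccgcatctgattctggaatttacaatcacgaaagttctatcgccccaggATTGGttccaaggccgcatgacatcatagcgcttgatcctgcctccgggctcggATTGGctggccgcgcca
Elovl2 promoter: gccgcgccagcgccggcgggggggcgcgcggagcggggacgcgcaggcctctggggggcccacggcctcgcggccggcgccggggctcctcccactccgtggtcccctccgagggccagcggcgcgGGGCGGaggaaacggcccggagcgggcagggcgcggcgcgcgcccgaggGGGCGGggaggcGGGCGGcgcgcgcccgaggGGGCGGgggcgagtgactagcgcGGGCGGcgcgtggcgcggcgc

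The windows differed in composition and in the motifs they held. The Elovl5 window, with 55.6% G and C, held 1 E-box (CACGTG) at bases 161 to 156 upstream of the start and the NF-Y box (CCAAT) on the other strand, read there as ATTGG, at bases 71 to 67 and 17 to 13. The Elovl2 window, with 87.2% G and C, held 5 copies of the GC box (GGGCGG). Both strands were searched in the same window of 32851 RefSeq promoters, of which 6.02% held CACGTG, 33.8% CCAAT and 32.7% GGGCGG. The sterol response element searched (TCACNCCAC, in 1.05% of promoters), the direct repeats of AGGTCA with 1 base between them (DR1, 0.0335%) or 4 (DR4, 0.0152%) and the D-box (TTATGTAA, 0.819%) had no match in either window or in those of Elovl1, Elovl6, Fads2 and Fads3. A match describes letters, not a bound site. Elovl2 also had a further RefSeq start, and the window before it, with 79.6% G and C, held no match to any motif searched. That window had 243 bases inside the annotated gene. The Fads2 window likewise had 243 bases inside its annotated gene, so the sequence upstream of the annotated Fads2 start was mostly not searched. An Elovl1 window lay wholly inside its gene, before a start 1608 bases from the annotated one. The other Elovl1 window lay upstream of the gene. Windows were found for 6 of the 10 genes, and those of Scd1, Scd2, Fads1 and Elovl3 were not analysed here.

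The elongases of saturated and monounsaturated chains had smaller or more variable differences. ELOVL6 lengthens palmitate to stearate, the substrate of SCD1, and its transcript stood at 62.7, 63.3, 68.1, 46.9 and 63.8 CPM in Chow and at 57.9, 45.9, 62.4, 68.7 and 69.7 CPM in TM5614. The groups covered nearly the same range. The means were 61.0 ± 8.14 and 60.9 ± 9.66 CPM (SD, n = 5 each), and the log2 fold change was -0.002 with a 95% interval of -0.31 to 0.30 (edgeR adjusted p = 0.994), which leaves out a fall of the size of that in Scd1.

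Elovl3, which makes very long saturated and monounsaturated chains and is known for its daily rhythm in mouse liver, stood at 67.7, 115, 53.8, 36.9 and 42.9 CPM in Chow. In TM5614 it stood at 90.3, 90.7, 171, 108 and 91.2 CPM. Chow replicate 2 lay within the TM5614 range and the other 4 Chow libraries below it. The log2 fold change was 0.80 (SE 0.30, 95% interval 0.16 to 1.44) and the adjusted p was 0.156 by edgeR and 0.0839 by DESeq2, with an exact permutation p of 0.0397. Without Chow replicate 2 Elovl3 passed, at a log2 fold change of 1.12 (edgeR adjusted p = 0.00796).

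Elovl1, the broadly expressed elongase that supplies very long chains for ceramides, stood at 29.1, 43.5, 29.8, 26.0 and 25.0 CPM in Chow. In TM5614 it stood at 21.3, 26.6, 17.5, 21.8 and 18.7 CPM. The groups overlapped in 1 library, TM5614 replicate 2, which was above Chow replicates 4 and 5. The log2 fold change was -0.54 (SE 0.17, 95% interval -0.91 to -0.17), which did not pass by edgeR (adjusted p = 0.105) and did by DESeq2 (adjusted p = 0.0478), and the exact permutation p was 0.0238. Chow replicate 2, the library whose values followed GC content and gene length, had the highest Elovl1, the lowest Elovl2 and the highest Elovl3 level of the Chow group. After GC content and gene length were taken out of every library, the log2 fold changes were -0.40 for Elovl1 (edgeR adjusted p = 0.0457), 0.90 for Elovl2 (0.00455) and 0.88 for Elovl3 (0.0656).

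On GRCm38, Elovl6 lies at chr3:129532355-129638495, Elovl3 at chr19:46131897-46135694 and Elovl1 at chr4:118428093-118432953, each on the plus strand.

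Levels of different genes were compared per length, as the deposited FPKM values. In Chow, Scd1 had a mean of 1037 ± 327 FPKM (SD, n = 5) and ranked 46 to 94 among all genes of a library. Fads2 (198 FPKM), Elovl2 (158 FPKM), Fads1 (147 FPKM) and Elovl5 (142 FPKM) followed at much the same level, and no neighbours in that order differed beyond their spread. The place of Fads2 depends on the transcript length behind its FPKM. Its Chow mean in CPM was below that of Fads1 (301 against 515), with longest annotated transcripts of 3150 and 3460 bases. The deposited FPKM thus took a much shorter length for Fads2 than for Fads1, and a level with the longer transcript was not computed. A lower tier held Elovl3 (33.2 FPKM), Elovl1 (15.6 FPKM) and Elovl6 (10.1 FPKM), and Scd2 and Fads3 were near 1.00 and 0.637 FPKM. Over the libraries of Chow, the ranges of neighbours were apart after Scd1, after Elovl5, after Elovl1 and after Elovl6.

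In TM5614 the order near the top changed. Scd1 had a mean of 454 ± 124 FPKM and was followed by Elovl5 (345 ± 61.7 FPKM) and Elovl2 (315 ± 36.4 FPKM), with ranges that overlapped, so that Scd1 was above Elovl5 in 4 of 5 libraries. Fads2 (227 FPKM) and Fads1 (105 FPKM) came next, and their ranges were apart. In CPM, which take no length, their TM5614 means were 347 and 367, so this gap rests on the lengths behind the FPKM. Scd1 made up 58.7% ± 6.16 of the summed FPKM of the 10 genes in Chow and 29.7% ± 8.01 in TM5614 (SD, n = 5 each), while Elovl5 went from 8.22% to 22.6% and Elovl2 from 9.19% to 20.7%. By rank among all genes of a library, Elovl5 was at 383 to 762 in Chow and at 153 to 263 in TM5614. Of all counts of a library, Scd1 alone took 0.498% ± 0.155 in Chow and 0.227% ± 0.0663 in TM5614.

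**Figure D3:**
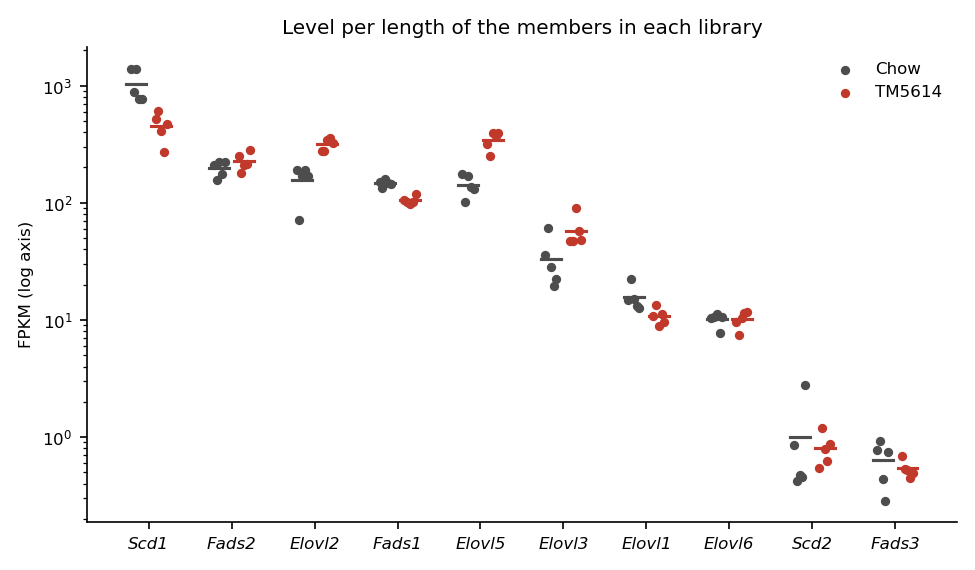
FPKM of the 10 transcripts in each library on a log axis, with genes in the order of their mean in Chow (grey points, Chow; red points, TM5614; bars, group means). In Chow, Scd1 (mean 1037 FPKM) lies above a tier of 4 genes between 142 and 198 FPKM; in TM5614, Scd1, Elovl5 and Elovl2 lie between 315 and 454 FPKM on average.

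Ratios within a library, which share that library's depth, are given as a description with no test, since the pairs were chosen with results known. The ratio of Fads1 to Fads2, the desaturases of the polyunsaturated path, was 0.643 to 0.861 in Chow and 0.416 to 0.574 in TM5614, without overlap. The level of this ratio depends on the transcript lengths behind the FPKM, while its fold difference between the groups does not. The ratio of Elovl5 to Elovl6 was 9.73 to 17.7 in Chow and 32.4 to 38.3 in TM5614, also without overlap, and it was nearly constant over the TM5614 libraries (34.2 ± 2.35, SD, n = 5). The ratio of Scd1 to Elovl6, which act in sequence on palmitate, was 72.2 to 133 in Chow and 23.6 to 80.4 in TM5614, with TM5614 replicate 2 inside the Chow range. The ratio of Elovl2 to Elovl5 overlapped, at 1.10 ± 0.272 in Chow and 0.925 ± 0.110 in TM5614. The ratio of Scd1 to Scd2 was 1716 ± 965 in Chow and 587 ± 203 in TM5614, and it was lowest in Chow replicate 5, at 273.

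**Figure D4:**
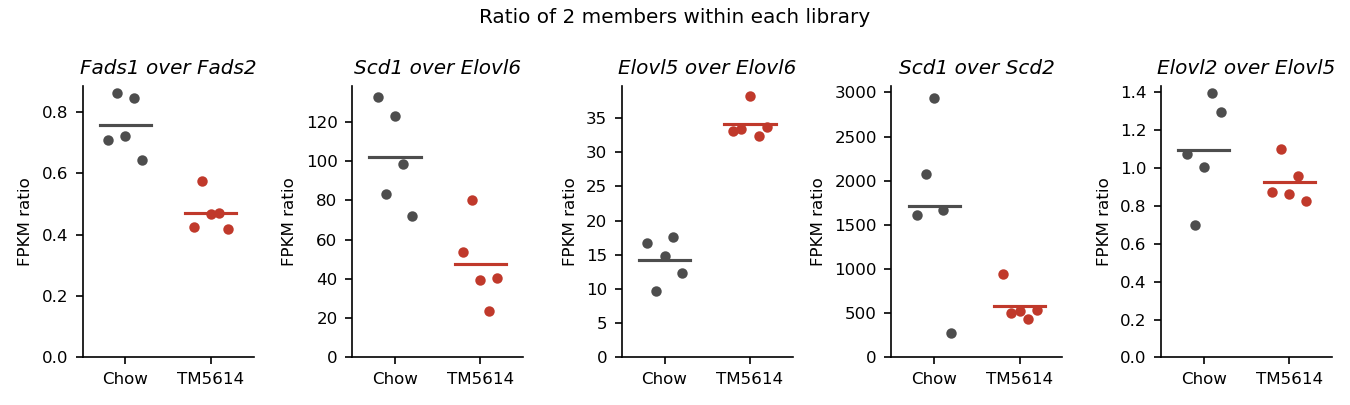
FPKM ratio of 2 genes within each library (vertical axes from 0, points in replicate order, bars at the group mean) for 5 pairs, Chow in grey and TM5614 in red. Fads1 over Fads2 is lower and Elovl5 over Elovl6 higher in all 5 TM5614 libraries than in any Chow library, while the other 3 pairs overlap.

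The genes that work beside the desaturases and elongases were followed in 11 lists of 89 genes, of which 74 were tested. In all, 3 were higher and 17 lower (27.0% of those tested, beside 4.5% over all genes), with a median log2 fold change of -0.26. These lists were chosen with earlier results of these data known. The count of 20 was 33 without Chow replicate 2 and 15 without TM5614 replicate 2.

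The electron supply of the desaturases was lower in 2 of 5 tested genes and higher in none. Cyb5r3, the cytochrome b5 reductase, fell from 398 ± 126 to 197 ± 22.7 CPM (log2 fold change -1.02, edgeR adjusted p = 0.00776), and Cyb5b, the cytochrome b5 of the outer mitochondrial membrane, fell with a log2 fold change of -0.56 (adjusted p = 0.0295). Cyb5a, the cytochrome b5 of the endoplasmic reticulum, did not pass (-0.27, adjusted p = 0.122). Of the enzymes that complete an elongation cycle, 1 of 5 tested passed, as lower. This was Tecr, the reductase of the last step, at 215 ± 70.6 CPM in Chow and 121 ± 8.45 CPM in TM5614 (log2 fold change -0.83, adjusted p = 0.0243), while Hsd17b12 (0.17) and Hacd3 (0.34), for the reduction and dehydration before it, did not pass. Cyb5r3 passed with any 1 library left out. Tecr did not pass without any 1 of the TM5614 libraries (adjusted p = 0.0506 to 0.0819), nor Cyb5b without Chow replicate 1, 3 or 5 or TM5614 replicate 2, 3, 4 or 5 (0.0597 to 0.0867). Chow replicate 2 had the highest level of both Tecr (336 CPM) and Cyb5r3 (620 CPM).

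The enzymes that supply acetyl-CoA, malonyl-CoA and palmitate were lower in 4 of 11 and higher in none, with a median of -0.43. Fasn, which encodes fatty acid synthase, fell from 153 ± 44.2 to 59.4 ± 13.7 CPM (log2 fold change -1.37, edgeR adjusted p = 0.00391). Thrsp and Mid1ip1, which encode proteins that promote lipogenesis, fell with log2 fold changes of -2.55 and -1.44, and Acss2, for acetyl-CoA synthetase, with -0.89. Among 8 tested acyl-CoA synthetases, 8 genes of peroxisomal chain shortening and 5 of phospholipid remodelling none passed by edgeR, with medians of 0.14, 0.40 and 0.05. At an unadjusted p under 0.05 by edgeR there were 4, 4 and 2 of them, by DESeq2 2 (Acsl3, lower, and Slc27a1, higher), 1 (Hsd17b4, higher) and 1 (Lpcat3, lower) passed, and by limma-voom 3, 5 and 2. Of 4 tested ceramide synthases Cers2, which uses very long chains such as those ELOVL1 makes, fell with a log2 fold change of -0.39 (adjusted p = 0.0402), a call lost without Chow replicate 1, 3 or 5 or any 1 TM5614 library (0.0569 to 0.123). Of the other family members Fads6 had a log2 fold change of -0.23 (adjusted p = 0.359), and Scd3, Scd4, Elovl4 and Elovl7, with at most 13 counts in any library, were not tested.

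Of 13 regulators, 1 was higher and 4 lower. Srebf1, which encodes the sterol regulatory element binding protein known to drive Scd1, Fasn and Elovl6, fell from 111 ± 27.2 to 30.9 ± 6.81 CPM (log2 fold change -1.84, edgeR adjusted p = 0.000402). Srebf2 fell with a log2 fold change of -1.03 and Insig1 with -1.62, while Insig2, for the second of the proteins that hold SCAP in the endoplasmic reticulum, rose from 151 ± 42.2 to 512 ± 95.9 CPM (1.77, adjusted p = 0.000549). Rxra, the partner of LXR and PPAR receptors, fell with a log2 fold change of -0.38 (adjusted p = 0.0417), and it did not pass without any 1 library other than Chow replicate 2 (0.0559 to 0.127). Ppara (-0.03) and the LXR gene Nr1h3 (-0.31) did not pass.

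Genes of the circadian clock moved with the groups as well. Of the 4 tested genes that peak with Arntl, 2 rose and none fell, with a median log2 fold change of 1.02. Arntl rose from 1.68 ± 1.39 to 11.3 ± 4.73 CPM (log2 fold change 2.76, edgeR adjusted p = 0.00659) and Clock rose with 0.98 (adjusted p = 0.00899). Nfil3 (1.06, adjusted p = 0.061) and Cry1 (-0.14, adjusted p = 0.78) did not pass. Of the 10 genes that peak with Dbp, 5 fell and none rose, with a median of -0.82, among them Per3 (-2.27), Ciart (-2.08), Dbp (-1.99) and Tef (-0.90). The fifth, Per1 (-0.75, adjusted p = 0.0304), did not pass without Chow replicate 3, 4 or 5 or TM5614 replicate 1, 2, 3 or 4 (0.0512 to 0.0807). Their part in the values of Scd1, Fads1, Elovl2, Elovl3 and Elovl5 was not tested.

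**Figure D5:**
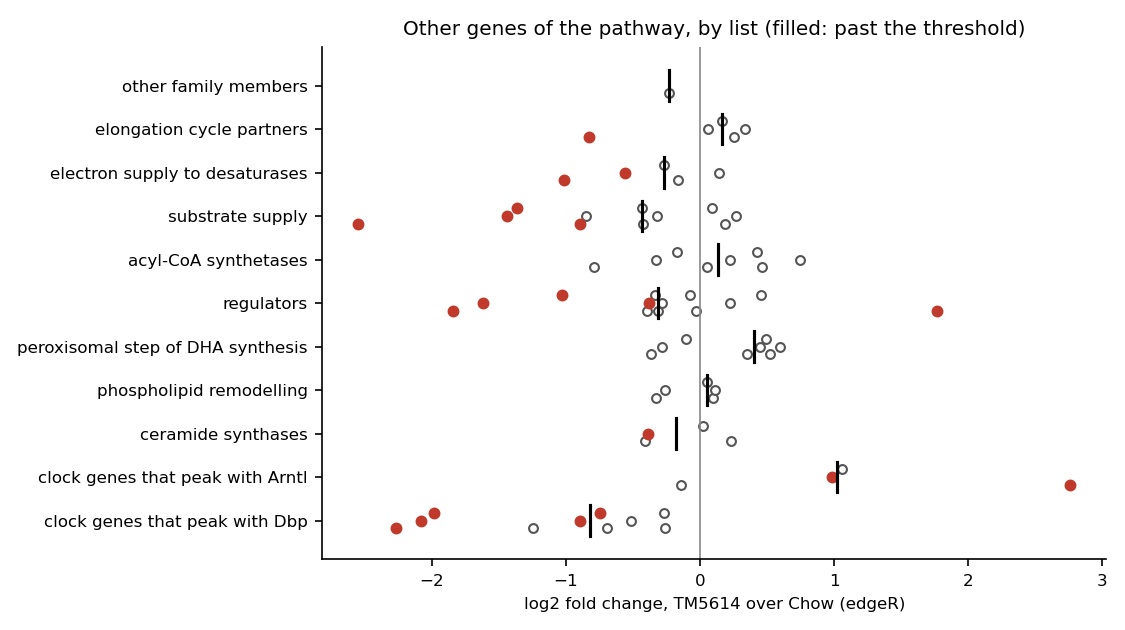
Log2 fold change of TM5614 over Chow (edgeR) for each tested gene of the 11 lists, with filled red points for genes past the adjusted threshold and a bar at each list's median. Of the 20 red points, 17 lie to the left of 0, and the 3 to the right are Insig2, Arntl and Clock.

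Profiles over the 10 libraries were compared by the distance between log2 CPM values centred on the mean of each gene, among genes with a mean of at least 50 counts. Nearest to Elovl5 were Cyp4a10 (distance 0.534), Enc1 (0.571) and Cyp4a14 (0.581), and Elovl2 was farther, at 0.909. Cyp4a10 stood at 1282 ± 326 CPM in Chow and 3391 ± 634 CPM in TM5614, although reads of the near-identical Cyp4a genes may be shared between them. Nearest to Elovl2 were Morf4l2 (0.521), Caprin1 (0.538) and Crot (0.541), of which Crot, for a carnitine acyltransferase of peroxisomes, stood at 739 ± 243 and 1542 ± 242 CPM. Nearest to Fads1 were 9030617O03Rik (0.221), Fam213a (0.307) and Ripk2 (0.325). Nearest to Scd1 were Slc6a9 (1.08), Ces1g (1.10) and Slc44a3 (1.14), at distances larger than those of the other 3 genes, and Fads1 was at 1.59 from it.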

How the data were processed

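The sample titles gave the groups and replicates, and the mouse numbers tied columns to samples. Per the methods of the study, 75-base single-end reads of poly(A) libraries were aligned to mm10 with STAR. The submitters' processing notes also name HOMER and DESeq2. The versions, the gene annotation and the use of strand are not given in the sources used here. The values deposited for each gene symbol were raw whole-number counts. They also deposited FPKM, whose divisors across libraries were checked and equal size factors of the DESeq2 kind. The authors' regularised log2 values from DESeq2 served as 1 alternative. Their deposited DESeq2 comparison (mean count signal, log2 fold change, standard error, Wald score, p-value and adjusted p-value) was not used.

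Counts were filtered with filterByExpr, scaled with TMM and tested with edgeR 4.0.16 in R 4.3.3 (glmQLFit and glmQLFTest, two-sided, no block), with Benjamini-Hochberg adjustment over 11092 genes and a threshold of 0.05. Standard errors were obtained by dividing the absolute log2 fold change by the root of F. CPM use TMM, and log2 CPM a prior count of 2. Alternatives were DESeq2 1.42.0 (the study's tool), limma-voom with sample quality weights (limma 3.58.1), RLE factors, plain library totals, dropping the filter, a minimum of 10 counts in each library, a block for replicate number, robust dispersion, GC and length correction (splines with 5 degrees of freedom, GC known for 96.7% of tested genes), an adjusted p of 0.01, each library left out, and Chow replicate 2 and TM5614 replicate 2 left out together. The main edgeR test, DESeq2 and limma-voom were run on simulated counts first, and the permutation test and the other alternatives were not. Counts of libraries of a group differed by more than sampling noise (chi-square per degree of freedom at least 8.00), so no library was taken for a copy of another. Mouse numbers differ, so libraries are separate animals. A count of 3 was set as the floor but was not used as a filter, and every member had at least 6 counts in each library. Counting error is not the only error, since the reads carry no molecular identifiers.

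All 10 members are named. Of each list the text names up to 4 genes with the smallest p past the threshold, with counts for the rest, and a few others, such as Rxra, Per1, Cyb5a and Hsd17b12, that were chosen after their values were seen; for each member past the threshold it names the 3 nearest profiles. The members and lists were chosen with earlier results of these data known. Positions were looked up by symbol in GENCODE M21 (GRCm38, which mm10 names), and promoters in RefSeq.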

Additional observations from a re-analysis of the deposited data

Results flagged for a closer look

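In 5 of the 20 groups of 5 libraries (10 genes in 2 conditions), 1 library was far from the rest by Dixon's gap test, where chance alone marks about 1 group in 20. Chow replicate 2 was marked for 2 genes, with the highest Elovl1 level of its group, at 43.5 CPM against 25.0 to 29.8 CPM, and the lowest Elovl2 level, at 279 CPM against 652 to 748 CPM. Scd2 was at 15.5 CPM in Chow replicate 5 and at 2.31 to 4.73 CPM in the other Chow libraries. Elovl3 was at 171 CPM in TM5614 replicate 3 and at 90.3 to 108 CPM in the other TM5614 libraries. Elovl6 was at 46.9 CPM in Chow replicate 4, the library with the fewest counts, and at 62.7 to 68.1 CPM in the other Chow libraries.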

How the results depend on the processing

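Of the 10 genes, 4 passed; the count was 1 at an adjusted p of 0.01 (Elovl5) and ran from 1 to 5 with 1 library left out. Over all genes the count of 499 was 907 with DESeq2, 1386 with limma-voom, 1230 without Chow replicate 2 and TM5614 replicate 2 together and 184 at an adjusted p of 0.01, and ran from 235 to 1031 with 1 library left out. Over the lists the count of 20 was 31 with DESeq2, 39 with limma-voom, 38 without both libraries, and 15 to 33 with 1 library left out. The estimate for Elovl6, near 0, changed sign with limma-voom (0.041), with library totals alone (0.044) and without both libraries (0.093). Its largest move was to -0.22 (SE 0.17), with GC content and gene length corrected. With 1 library left out Elovl6 ran from -0.088 to 0.08, and Scd2 from -0.55 to 0.56, the latter without Chow replicate 5. Elovl1 passed in 5 of 11 alternatives and Elovl3 in 2 of 11. Scd1, Fads1, Elovl2 and Elovl5 passed in all 11, which hold the adjusted threshold at 0.05. With the replicate number as a block 555 genes and 5 of the 10 passed, Elovl1 being the fifth (adjusted p = 0.0428). The deviations of same-numbered libraries, rather than their levels, correlated at 0.0316 to 0.318, over 0.1 in 3 of 5 pairs. By these deviations 3 of 10 libraries correlated best with their own number, so the numbers were not taken as pairs. Scaling by library totals moved the median of all genes by 0.049. Without the filter on counts, or with at least 10 in every library, which drops Fads3, the count stayed at 4. Counts were lowest for Scd2 and Fads3, at 16 to 168 and 6 to 32 per library, and the SE of Scd2 was 0.51 with all libraries and 0.30 without Chow replicate 5. The cause of these differences was not tested.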
